A study of Mus musculus with 16 samples.

Results

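The genes described here had more exon reads 5 h after stimulation of mouse pre-B cells, while their exon reads at 0.5 and 1.5 h stayed close to the control. A gene was taken as a member with at least 10 CPM (the unique exon reads of a gene for every 1000000 of its library) at 5 h, a ratio of 5 h to control of at least 1.4, and ratios of 0.5 h and of 1.5 h to control that both lay between 0.83 and 1.2. The tables list 38918 features. Of these, 8351 had at least 10 CPM at 5 h, and 76 met the rule, or 0.91%. The members were chosen by these exon ratios, which are therefore given as a description. All cells, the control included, were murine Blnk-/- pre-B cells infected with a retroviral BLNK-ERt2 construct. The sample titles describe a Blnk that is inducible by tamoxifen. The groups were an untimed control and cells stimulated for 0.5, 1.5 and 5 h. Whether the control received the solvent of the inducing drug is unknown. The 16 samples carry lane names and 1 index per condition, and from this they were read as 4 lanes of 4 libraries, with 1 library per condition. No difference between conditions has a replicate check, and no test was made. In such bulk RNA, more cells of a type and more RNA per cell cannot be told apart.

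BLNK is an adaptor protein that couples the pre-B cell receptor to phospholipase C gamma and to calcium signalling, and pre-B cells without it tend to arrest and keep dividing. The ERt2 part is a modified oestrogen receptor ligand domain that holds the fused protein inactive until tamoxifen is bound. In a time course of this kind, the first genes to respond often encode transcription factors, and later ones enzymes, surface proteins and parts of the protein synthesis machinery. Reads in exons of poly(A) RNA come mostly from finished mRNA. Reads within a gene but outside its exons can come from RNA that is not yet spliced, which is short-lived, so both kinds of read can follow a gene on different time scales.

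The libraries held 29024598, 28570849, 27579420 and 26006350 unique exon reads in the control and at 0.5, 1.5 and 5 h, and 0 reads allowed at most 0.103 to 0.115 CPM. The spread between lanes was that of counting, at 0.992 to 1.01 in chi-square over degrees of freedom. Of the pre-B cell markers, 9 were found, none was under 1 CPM, and their sum was 7320 CPM in the control and 6239 CPM at 5 h. Markers of T, erythroid and stromal cells summed to at most 1.58 CPM in any library, and those of megakaryocytes to at most 2.86. NK cell markers summed to 18.1 CPM in the control and 21.5 at 5 h, with Ncr1 and Nkg7 under 1 CPM, and plasma cell markers to 70.9 and 65.2, with Prdm1 under 1 CPM. Intervals are exact Clopper-Pearson 95% intervals of the ratio. Since the reads carry no molecular identifiers, they are not counts of independent molecules, and the intervals cover counting error only.

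The members were 1.49 times the control at 5 h in the median, with quartiles of 1.44 and 1.599. Most were just above the limit, since 40 lay between 1.4 and 1.5 and only Map2 and Arhgef33 reached 2. The median ratio over the members was 1.03 at 0.5 h and 1.098 at 1.5 h, and over all 8351 features it was 0.995, 0.996 and 1.004 at the successive times. At 1.5 h 65 of the 76 members were above the control and 11 below, beside 4087 above among all 8351 features. For 40 members the counting interval at 1.5 h lay above 1, a count not made over all features. The limit of 1.2 thus admitted genes with a 1.5 h ratio slightly above 1. These ratios share the control library with the 5 h ratios that chose the members. From 1.5 h to 5 h the median ratio was 1.402, and the lowest was 1.201. Summed over the members, the level was 7852 CPM in the control, 8105 at 0.5 h, 8606 at 1.5 h and 11987 at 5 h.

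Among all features with at least 10 CPM at 5 h, 345 were at least 1.4 times the control at 5 h, or 4.13%, and 364, or 4.36%, were lower by the same fold. Of the 345, 269 fell outside the early limits, 255 of them because the 1.5 h ratio was above 1.2. Of the 5945 features within both early limits, the 76 members made up 1.28%. The counting interval at 5 h lay above 1.4 for 41 members and included 1.4 for 35. Taken lane by lane, 41 members reached 1.4 in all 4 lane pairs, 18 in 3, 16 in 2 and Pabpc4 in 1. Just inside the limit lay Rps6ka3, Frat2 and Stt3a with 1.401, 1.402 and 1.407, and just outside lay Pfkp, Mbnl2 and Bzw2 with 1.399, 1.397 and 1.397. At the 1.5 h limit Nhp2, Creg1 and Enpep lay just inside with 1.197, 1.196 and 1.195. Ncl, Cox10 and Mga lay just outside with 1.2002, 1.201 and 1.202, so the border divides genes with nearly equal values.

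**Figure D1:**
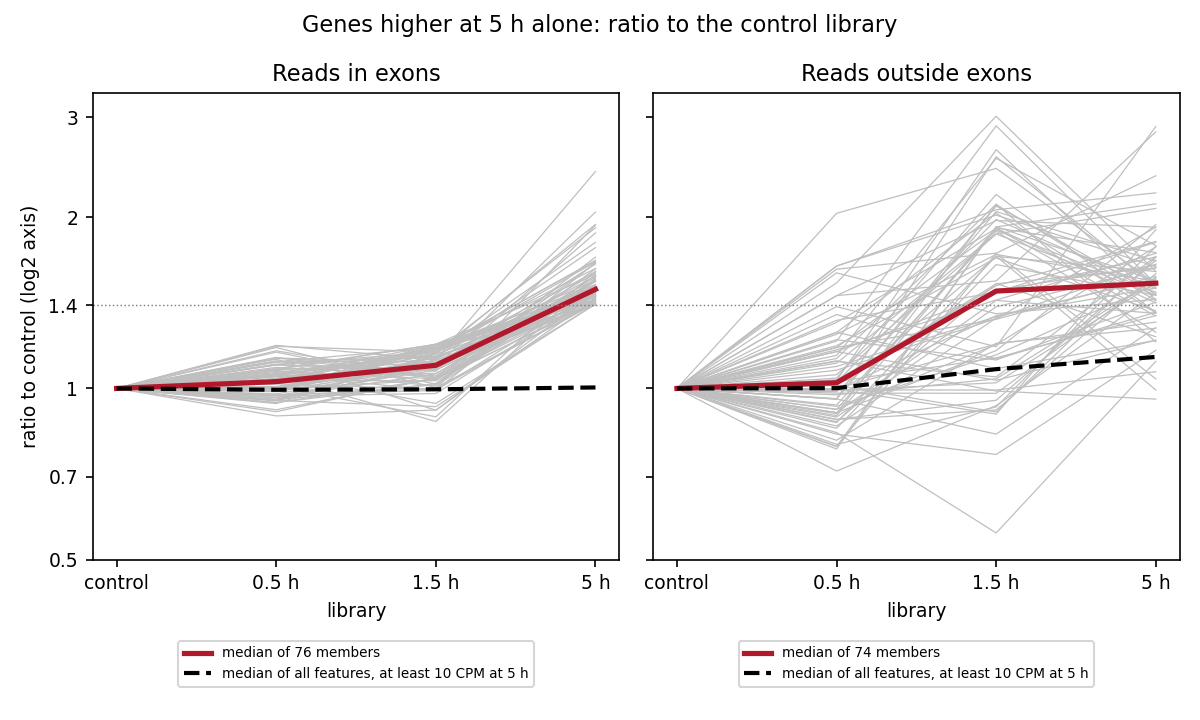
Ratio to the control library (log2 axis) of reads in exons (left, 76 members) and of reads outside exons (right, 74 members with enough reads) in each library; grey lines are members, the red line is their median and the dashed line the median of all features with at least 10 CPM at 5 h. In exons the median stays at 1.03 and 1.098 and reaches 1.49 at 5 h, whereas outside exons it is 1.48 at 1.5 h and 1.53 at 5 h.

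In the median, reads outside exons of these genes were higher than in the control at 1.5 h, the time at which the rule held their exon ratios at 1.2 or less. They were counted as unique reads of the whole gene minus unique exon reads, scaled by the library's unique exon reads, for the 74 members with at least 20 such reads over the libraries compared. The rule did not count these reads, but they come from the same libraries and share the control library with it. The median ratio to control was 1.02 at 0.5 h, 1.48 at 1.5 h and 1.53 at 5 h. Over all features it was 1.001, 1.08 and 1.14. A ratio of at least 1.4 was reached by 8 members at 0.5 h, 41 at 1.5 h and 53 at 5 h, against 6.68, 18.0 and 11.2% of all features. Features within the early limits that did not reach 1.4 in exons at 5 h had medians of 1.08 at 1.5 h and 1.13 at 5 h outside exons. Against the 0.5 h library, which leaves the control out, the members' median at 1.5 h was 1.327, beside 1.07 over all features. All libraries shared a drift, with 15.0, 15.0, 16.0 and 17.0 reads outside exons per 100 in exons, and scaled by all reads outside exons the members' medians were 1.39 at 1.5 h and 1.35 at 5 h.

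Reads over exon-intron borders, a narrower measure of unspliced RNA, gave medians of 1.13, 1.58 and 1.78 over the 38 to 40 members with enough such reads. A ratio of at least 1.4 was reached by 3 of 38 at 0.5 h, 23 of 39 at 1.5 h and 29 of 40 at 5 h, against 14.3, 24.6 and 21.1% of all features. In the control, 333 of the 10474 features with border reads had more of these than reads outside exons. Border reads are thus not all counted outside exons, and some may be among the exon reads that the rule used. Reads over exon-exon junctions, which come from spliced RNA, gave 1.06, 1.09 and 1.54, close to the exon ratios that the rule used and of which they are a part.

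By these reads the members fell into 3 classes, under a rule set after the values were seen. In 41 members the reads outside exons were at least 1.4 times the control at 1.5 h, in 22 at 5 h but not at 1.5 h, and in 11 at neither time. The 0.5 h ratio was not used for the classes. At 0.5 h, 7 of the 41 and 1 of the 22 were already at 1.4 or above. Frat2, a gene of 1 exon, and 0610012G03Rik had too few reads to class. The classes hold 17.9, 5.27 and 76.8% of all features. In the early class the median was 1.91 at 1.5 h and 1.53 at 5 h, and 30 of its 41 members were lower at 5 h than at 1.5 h. In the late class the median was 1.13 at 1.5 h and 1.61 at 5 h. The class rule used these same ratios, so the medians and the count of 30 follow from it in part. No such count was made over all features of the early class. The exon ratios, which the rule bounds in both classes, had a median of 1.1 in each at 1.5 h and of 1.49 and 1.57 at 5 h.

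**Figure D2:**
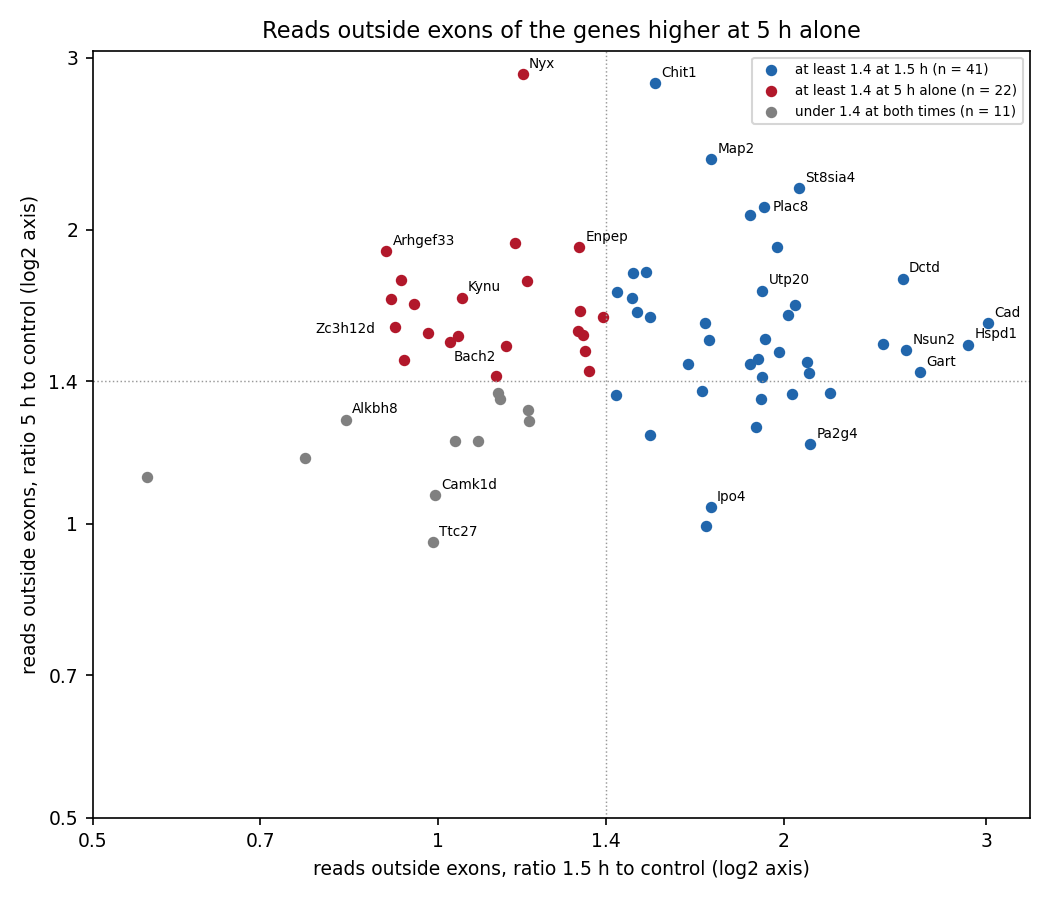
Ratio to control of reads outside exons at 1.5 h (horizontal) and 5 h (vertical), both on log2 axes, for 74 members; colours give the classes and dotted lines mark 1.4. Cad, Hspd1, Gart, Nsun2 and Dctd lie farthest to the right, with 2.54 to 3.01 at 1.5 h, and Nyx and Chit1 lie highest, with 2.89 and 2.83 at 5 h.

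The promoters of 4 members are shown, Cad and Dctd for the early class and Rab11fip2 and Enpep for the late class. They had the highest ratio outside exons of their class among members with at least 90% unique reads, no overlapping feature and a RefSeq start within 500 bases of the deposited gene end. A single chromosome was left out of this choice. Each sequence holds the 250 bases before the start in RefSeq GRCm38.p6, written on the gene's strand. Capitals mark, on either strand, the NF-Y box CCAAT, the SP and KLF box GGGCGG, the E-box CACGTG and the TATA box TATAAA. Cad lies at chr5:31054530-31054779 (plus strand), Dctd at chr8:48098842-48099091 (plus), Rab11fip2 at chr19:59943655-59943904 (minus) and Enpep at chr3:129332750-129332999 (minus).
Cad: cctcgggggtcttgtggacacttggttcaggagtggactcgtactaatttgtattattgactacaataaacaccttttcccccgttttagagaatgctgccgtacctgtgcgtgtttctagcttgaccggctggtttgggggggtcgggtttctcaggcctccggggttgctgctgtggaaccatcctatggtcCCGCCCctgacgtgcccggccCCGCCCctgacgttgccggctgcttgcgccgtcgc
Dctd: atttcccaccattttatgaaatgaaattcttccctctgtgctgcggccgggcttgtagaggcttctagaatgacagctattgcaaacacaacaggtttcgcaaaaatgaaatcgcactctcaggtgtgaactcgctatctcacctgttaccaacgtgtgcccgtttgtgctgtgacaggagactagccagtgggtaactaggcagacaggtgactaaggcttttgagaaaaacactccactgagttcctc
Rab11fip2: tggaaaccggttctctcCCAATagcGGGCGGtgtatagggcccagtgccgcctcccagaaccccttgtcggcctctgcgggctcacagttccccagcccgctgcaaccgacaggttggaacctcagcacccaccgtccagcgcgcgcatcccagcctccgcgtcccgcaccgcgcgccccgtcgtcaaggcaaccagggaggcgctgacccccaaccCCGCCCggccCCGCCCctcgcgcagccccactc
Enpep: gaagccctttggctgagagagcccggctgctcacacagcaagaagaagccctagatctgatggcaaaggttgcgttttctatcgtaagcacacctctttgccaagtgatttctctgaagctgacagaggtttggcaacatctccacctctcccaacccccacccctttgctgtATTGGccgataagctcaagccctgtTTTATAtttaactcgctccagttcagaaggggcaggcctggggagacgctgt
Cad holds GGGCGG at 2 places, Rab11fip2 holds it at 3 with 1 CCAAT, Enpep holds 1 CCAAT and 1 TATAAA, and Dctd holds none of the 4 motifs.

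RefSeq promoters (250 bases before to 50 after the start) were matched for 65 of the 76 members by symbol. For 55 of them the RefSeq start lay within 500 bases of the deposited 5' end, and all 65 were kept in the shares below. Members with no match include A630033H20Rik, Ext1, Gm684, Gpcpd1, Kynu, Mkl2, Ndufaf6, Nlrc5, Rps6ka3 and Slc6a6. Of 15 motifs searched on both strands, GGGCGG differed most. It was in 31 of 65 member promoters, or 47.7%, beside 68.4% of the 6397 promoters of features with at least 10 CPM at 5 h and 35.7% of all 32851 promoters. The members' promoters also had less G and C, with a median of 57.7% beside 61.3% for those 6397, and the part of base composition in the difference was not tested. In the early class 20 of 36 held GGGCGG, beside 72.0% of the 1088 expressed features of that class. In the late class 7 of 18 held it, beside 65.8% of 322.

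CCAAT was in 31 of the 65 member promoters, or 47.7%, beside 39.7% of the expressed features and 37.4% of all promoters. AGGTCA, a nuclear receptor half-site, was in 18.5% beside 11.4 and 16.3%. GAAANNGAA, an IRF motif, was in 13.8% beside 7.03 and 8.56%. The E-box CACGTG was in 7, or 10.8%, beside 11.2 and 7.15%, and TATAAA was in 6.15% beside 6.08 and 13.6%. For the other motifs, the AP-1 motif TGACTCA, TGACGTCA (CRE), CCGGAAGT (ETS), GTAAACA (FoxO), CTTTGAT (LEF and TCF), GGGANTTTC (NF-kB), GCGTGGGCG (EGR), TTTCGCGC (E2F) and CAGGTG (E protein), members and expressed features differed by at most 1.83 percentage points. No motif searched holds another whole, but GGGCGG and the EGR motif share letters. A match describes the letters only.

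Genes for ribosome assembly and RNA polymerases all belonged to the early class. These 7 members, among them Utp20, Cmss1, Utp14a, Polr1a, Nhp2 and Pa2g4, had a median of 1.52 in exons at 5 h. Outside exons the 6 named had 1.65 to 2.44 at 1.5 h and 1.21 to 1.73 at 5 h. Utp20, a large scaffold protein of the small subunit processome, had the highest exon ratio of them. Its exon level was 85.3 CPM in the control, 85.8 at 0.5 h, 98.2 at 1.5 h and 154 at 5 h, a ratio of 1.81 (1.72 to 1.90). As the rule requires of every member, the 5 h library was the highest, and none of the other 3 exceeded 98.2 CPM. Outside exons Utp20 had 5.55 CPM in the control, 4.97 at 0.5 h, 10.6 at 1.5 h and 9.61 at 5 h, so it was already high at 1.5 h.

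Polr1a, the largest subunit of RNA polymerase I, had 89.2, 94.6, 101 and 136 CPM in exons at the successive times and 3.82, 3.92, 7.58 and 5.73 CPM outside exons. Pa2g4, a growth-regulated protein that binds ribosomes and their precursors, had 334, 331, 397 and 484 CPM in exons. Its reads outside exons were 2.11 times the control at 1.5 h (1.90 to 2.35) and 1.21 times at 5 h. Both genes were thus highest outside exons at 1.5 h, whereas in exons the rule requires that 5 h be highest. Nhp2, a protein of H/ACA small nucleolar ribonucleoproteins, had 2.44 at 1.5 h from 19 control reads, so its interval ran from 1.39 to 4.42.

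The wider list of ribosome biogenesis and RNA polymerase I genes shows where these members stood. Of its 71 genes with at least 10 CPM at 5 h, 30 were at least 1.4 times the control at 5 h and none was lower by that fold. In 55 the 1.5 h exon ratio was above 1.2, so the early limit removed most of the list, and 4 genes were members: Polr1a, Nhp2, Utp14a and Utp20. The list had medians of 1.36 in exons at both 1.5 and 5 h and of 1.93 outside exons at 1.5 h, with 59 of 68 genes at or above 1.4.

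Nucleotide synthesis was the role with the highest median ratio outside exons at 1.5 h, 2.63 over 3 genes. Cad carries the first steps of pyrimidine synthesis in 1 protein, Gart carries 3 activities of purine synthesis, and Dctd is dCMP deaminase, which feeds thymidylate synthesis. In exons Cad had 222, 244, 240 and 322 CPM at the successive times, and the 5 h ratio was 1.45 (1.404 to 1.498). Outside exons it had 1.96, 3.01, 5.91 and 3.15 CPM, or 3.01 times the control at 1.5 h (2.21 to 4.14, from 57 control reads). Its exon reads were thus at most 1.099 times the control at both early times. Gart had 165, 175, 193 and 242 CPM in exons and 10.4, 10.7, 27.3 and 14.8 CPM outside exons. Dctd had 24.3, 23.1, 26.8 and 34.2 CPM in exons and 7.44, 8.51, 18.9 and 13.3 outside. All 3 genes were highest outside exons at 1.5 h and lower there at 5 h. In the list of nucleotide and polyamine synthesis 3 of 27 genes reached 1.4 at 5 h in exons, Cad and Gart were members, and 18 of 24 reached 1.4 outside exons at 1.5 h, with medians of 1.15 and 1.63.

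Mitochondrial proteins and peptidases numbered 6. Ide, the insulin-degrading metalloprotease, had 169, 169, 186 and 280 CPM in exons, a 5 h ratio of 1.66 (1.597 to 1.72), and 15.1, 14.5, 31.6 and 22.1 CPM outside exons. Its exon reads were highest at 5 h, as the rule requires, and its reads outside exons at 1.5 h. Hspd1, the mitochondrial chaperonin HSP60, had 157, 157, 186 and 240 CPM in exons and 2.90 times the control outside exons at 1.5 h. Only 40.8% of its exon reads were unique, and its span overlaps Hspe1, which encodes the partner HSP10 and had 1.09 in exons at 5 h and 3.16 outside exons at 1.5 h. C1qbp, a mitochondrial matrix protein, and Nln, the peptidase neurolysin, were also of the early class, with 1.89 and 1.92 outside exons at 1.5 h. Tmem69 and Ndufaf6, an assembly factor of respiratory complex I, reached 1.4 outside exons at neither time. In the list of mitochondrial ribosome and translation 6 of 79 genes reached 1.4 in exons at 5 h, and Hspd1 was its only member here.

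Genes that modify RNA or protein, shape mRNA ends or carry imports numbered 8, with exon ratios of 1.43 to 1.55 at 5 h. Nsun2, an RNA cytosine methyltransferase, had 210, 202, 229 and 314 CPM in exons and 2.55 times the control outside exons at 1.5 h, with a span that overlaps Papd7. Prmt7, a protein arginine methyltransferase, had 2.05 outside exons at 1.5 h, and Ipo4, a nuclear import receptor, had 1.73 at 1.5 h and 1.04 at 5 h. Cpsf2, a subunit of the mRNA cleavage and polyadenylation factor, had 277, 274, 324 and 417 CPM in exons and 1.49 outside exons at 1.5 h. These belonged to the early class with Pabpc4, a cytoplasmic poly(A)-binding protein. Pabpc4 had only 28.1% unique reads and was not a member when total exon reads were used. Nor were Ap1ar, Creg1, Enpep, Nhp2, Tmem69 and Vipr2. Mettl4, an adenine methyltransferase, was of the late class. Alkbh8, which modifies tRNA, and Dph5, an enzyme of diphthamide synthesis, reached 1.4 outside exons at neither time, with 0.83 and 1.197 at 1.5 h.

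**Figure D3:**
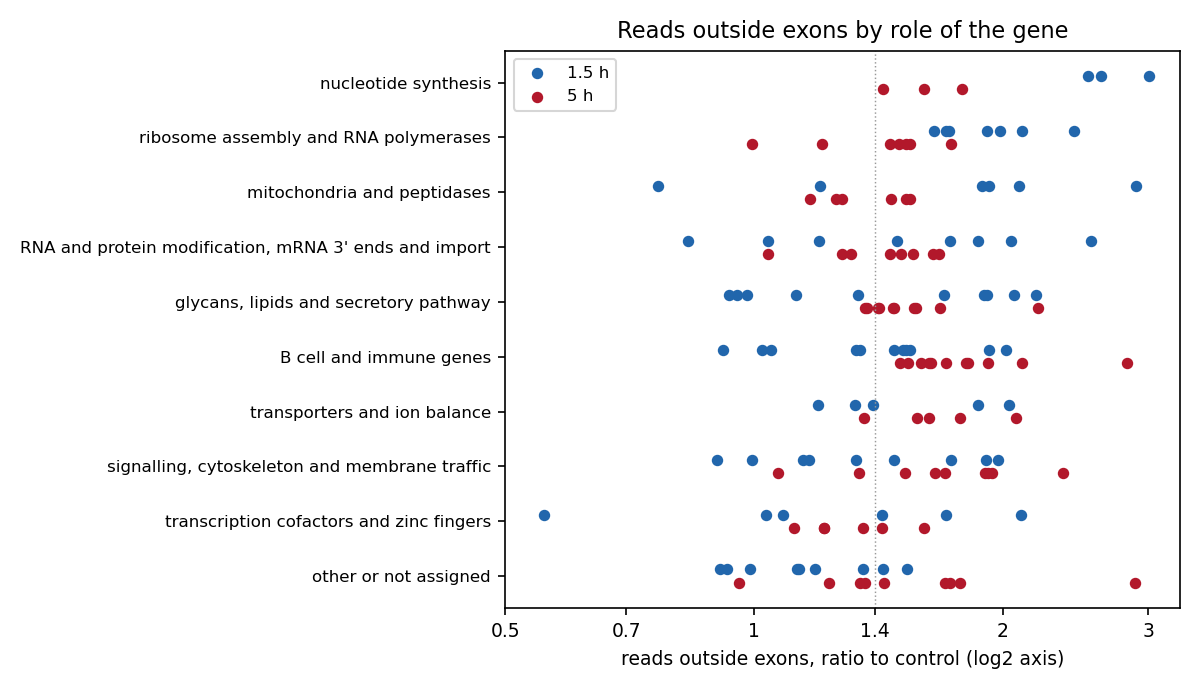
Ratio to control of reads outside exons (log2 axis) at 1.5 h (blue) and 5 h (red) for each classed member, by role. All 7 genes of ribosome assembly and RNA polymerases lie above 1.4 at 1.5 h, and 5 of them at 5 h. All 3 of nucleotide synthesis lie above 1.4 at both times. All 11 B cell and immune genes lie above 1.4 at 5 h, and 6 of them at 1.5 h.

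B cell and immune genes numbered 11, with a median exon ratio of 1.57 at 5 h. Roles here were given to genes already chosen as members, with no count of each role over all features. The lists of B cell maturation, receptor signalling components and interferon response hold no member. All 11 had ratios outside exons of at least 1.50 at 5 h, and 6 belonged to the early class and 5 to the late class. Bach2, a transcriptional repressor that guards B cell identity and the pre-B receptor checkpoint, had 192, 217, 210 and 307 CPM in exons at the successive times. Outside exons it had 48.4, 48.0, 49.5 and 74.3 CPM. In exons the rule places the 5 h library above the others, here at 1.597 (1.54 to 1.65). Outside exons the 5 h library was also alone above the others, at 1.53 (1.43 to 1.65). Bach2 was the only member in the list of B lineage transcription factors, in which 4 of 29 genes reached 1.4 in exons at 5 h. Of its exon reads 76.2% were unique.

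Zc3h12d, an RNase of the Regnase family that restrains immune mRNAs, had a similar course, with 274, 288, 240 and 429 CPM in exons and 57.6, 50.8, 52.8 and 91.7 CPM outside. Its 1.5 h exon ratio of 0.87 was the lowest of all members. Kynu, the enzyme kynureninase of tryptophan breakdown, was the most abundant member in reads, with 828, 891, 836 and 1278 CPM in exons and 717, 800, 751 and 1222 CPM outside. Per kilobase of exon its 5 h level was 208 CPM, below Plac8 at 438. Both Zc3h12d and Kynu were of the late class, at 0.92 and 1.05 outside exons at 1.5 h.

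Enpep, the aminopeptidase known as BP-1 and used as a surface marker of late pro-B and pre-B cells, had 611, 661, 730 and 888 CPM in exons. Its reads outside exons were 62.8, 67.6, 83.3 and 121 CPM, so both were higher at each later time, and its exon ratio of 1.195 at 1.5 h lay at the limit. Fcgr2b, the inhibitory Fc receptor of B cells, had 122, 121, 141 and 203 CPM in exons, and 1.34 and 1.50 outside exons at 1.5 and 5 h. Plac8, a small cysteine-rich protein of lymphoid and myeloid cells, had 471, 459, 467 and 697 CPM in exons but 27.8, 21.7, 53.4 and 58.6 CPM outside. Plac8 thus was nearly level in exons up to 1.5 h while its reads outside exons were 1.92 times the control.

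Nlrc5, a transactivator of MHC class I genes, had 93.5, 104, 107 and 150 CPM in exons and 1.53 outside exons at 1.5 h. The list of interferon response and MHC class I genes went the other way at 5 h, with a median of 0.77 over 18 genes, none at 1.4 and 6 lower by that fold. Mcoln2, a lysosomal cation channel, had 21.6, 20.4, 22.0 and 33.6 CPM in exons and 1.52 outside exons at 1.5 h.

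Chit1, the chitinase chitotriosidase, Cybb, the catalytic subunit of the phagocyte NADPH oxidase, and Cst7, the protease inhibitor cystatin F, are also known from myeloid cells. Chit1 had 23.4, 24.3, 27.1 and 44.8 CPM in exons, and outside exons its ratios were 1.46, 1.54 and 2.83. Cybb had 113, 112, 129 and 200 CPM in exons, and Cst7 had 58.0, 58.2, 64.9 and 85.2 CPM. All 3 were highest in exons at 5 h, which the rule requires of every member. The 6 myeloid markers found summed to 83.4, 80.1, 71.1 and 44.0 CPM at the successive times, and Csf1r, Elane and Cd14 were under 1 CPM. Which cells gave the reads of Chit1, Cybb and Cst7 was not tested.

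Genes of glycan and lipid synthesis and the secretory pathway numbered 10, divided evenly between the early and the late class. St8sia4 and St3gal6 are sialyltransferases. St8sia4 had 143, 154, 159 and 220 CPM in exons and 20.1, 32.9, 41.3 and 44.3 CPM outside, already 1.64 times the control outside exons at 0.5 h. St3gal6 had 124, 124, 140 and 196 CPM in exons, with 1.34 and 1.56 outside exons at 1.5 and 5 h, and its span overlaps Dcbld2. Of the early class were also Ext1, which extends heparan sulfate, Stt3a, a catalytic subunit of oligosaccharyltransferase, Xxylt1, a xylosyltransferase, and Ergic1, a protein of the ER to Golgi compartment. Ergic1 had 103, 104, 102 and 145 CPM in exons and 2.19 outside exons at 1.5 h, the highest of the group. Of the late class were Kdsr, a reductase of sphingolipid synthesis, Manea, an endomannosidase, Pigh, a subunit for the first step of GPI anchor synthesis, and Gpcpd1, a glycerophosphocholine phosphodiesterase. Gpcpd1 had 139, 131, 144 and 195 CPM in exons and 45.4, 40.0, 43.3 and 76.3 CPM outside. Outside exons, too, the 5 h library alone was high.

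Signalling, cytoskeleton and membrane traffic gave 10 members, among them the 2 highest exon ratios. Map2, a microtubule-associated protein best known from neurons, had 6.62, 7.88, 7.43 and 15.9 CPM in exons, a 5 h ratio of 2.41 (2.02 to 2.87). It is a gene of low level, with a 5 h level of 0.97 CPM per kilobase of exon. With 5 CPM added to both libraries its ratio was 1.801. Arhgef33, named as a guanine nucleotide exchange factor, had 43.9, 47.6, 47.9 and 89.7 CPM in exons, a ratio of 2.04 (1.91 to 2.19). It had more reads outside exons than in them, 98.4, 98.0, 88.7 and 187 CPM, and these too were high at 5 h alone. Over exon-intron borders, however, its ratios were 1.19 at 0.5 h, 1.54 at 1.5 h and 2.23 at 5 h, so the 2 measures differed at 1.5 h.

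Rab11fip2, an effector of the recycling GTPase Rab11, and Vipr2, a receptor for vasoactive intestinal peptide, were of the late class with 1.94 and 1.65 outside exons at 5 h. So was Rps6ka3, the kinase RSK2, with 133, 127, 151 and 186 CPM in exons. The early class held Map2, Mpp6, a membrane scaffold protein, Mkl2, a coactivator of serum response factor, and Ap1ar, a regulator of AP-1 coated vesicles, with 1.48 to 1.97 outside exons at 1.5 h. Camk1d, a calcium/calmodulin-dependent kinase, had 42.7, 47.7, 44.5 and 66.2 CPM in exons, yet 40.1, 39.8, 39.8 and 42.9 CPM outside. Its reads outside exons thus stayed level while its exon reads were 1.55 times the control. Frat2 binds GSK3 and had 42.3, 40.5, 46.4 and 59.3 CPM.

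Transporters and ion balance gave 5 members. Slc9a7, a sodium-proton exchanger of the Golgi, had 31.6, 36.8, 33.0 and 52.4 CPM in exons, and outside exons 1.19 and 1.77 at 1.5 and 5 h. Slc6a6, the taurine transporter, had 205, 218, 235 and 296 CPM in exons and 2.03 outside exons at 1.5 h. Atp2b4, a calcium pump of the plasma membrane, had 9.54, 10.7, 8.74 and 14.1 CPM in exons and 1.87 and 2.07 outside. Slc6a6 and Atp2b4 were of the early class, and Slc9a7, Car12, a carbonic anhydrase, and Pkd1l3, a channel-like protein of the polycystin family, were of the late class.

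Transcription cofactors and zinc finger genes numbered 6. Tbl1x, a subunit of the NCoR and SMRT corepressor complexes, had 264, 257, 285 and 390 CPM in exons and 1.71 outside exons at 1.5 h. Med9, a subunit of Mediator, had 28.4, 29.4, 33.4 and 46.1 CPM in exons, with 1.08 and 1.21 outside exons at 1.5 and 5 h. The zinc finger genes Zfp759, Zfp874b, Zfp52 and Zbtb6 had exon ratios of 1.41 to 1.57 at 5 h. At 17 to 56 control reads outside exons, their counting intervals outside exons are wide, as in Zfp52, from 0.85 to 2.42 at 1.5 h.

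The other 10 members have other functions or none assigned. Nyx encodes nyctalopin, a leucine-rich repeat protein known from the retina. It had 193, 213, 207 and 362 CPM in exons, a ratio of 1.88 (1.82 to 1.94), and 36.9, 51.4, 43.7 and 107 CPM outside, the highest 5 h ratio outside exons of all members at 2.89. Tmem229b, a membrane protein, had 204, 209, 240 and 342 CPM in exons. Ccnb1ip1, known from meiotic crossovers, had 7.44, 7.0, 8.56 and 14.5 CPM, with 1.70 outside exons at 5 h.

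Ttc27, a tetratricopeptide repeat protein, had level reads outside exons at 5 h, as did Camk1d. It had 25.9, 25.2, 25.9 and 50.2 CPM in exons, a ratio of 1.94 (1.77 to 2.12). Outside exons it had 33.5, 37.5, 33.2 and 32.1 CPM, a ratio of 0.96 (0.87 to 1.05) at 5 h, the lowest of all members, and over exon-intron borders the ratio was 0.69. Its exon reads alone were high at 5 h. The group also held Creg1, a secreted glycoprotein, with 1.59 in exons and 1.53 outside exons at 1.5 h, and Tcam1, A630033H20Rik, Gm684, Ccdc126 and 0610012G03Rik with exon ratios of 1.41 to 1.62.

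**Figure D4:**
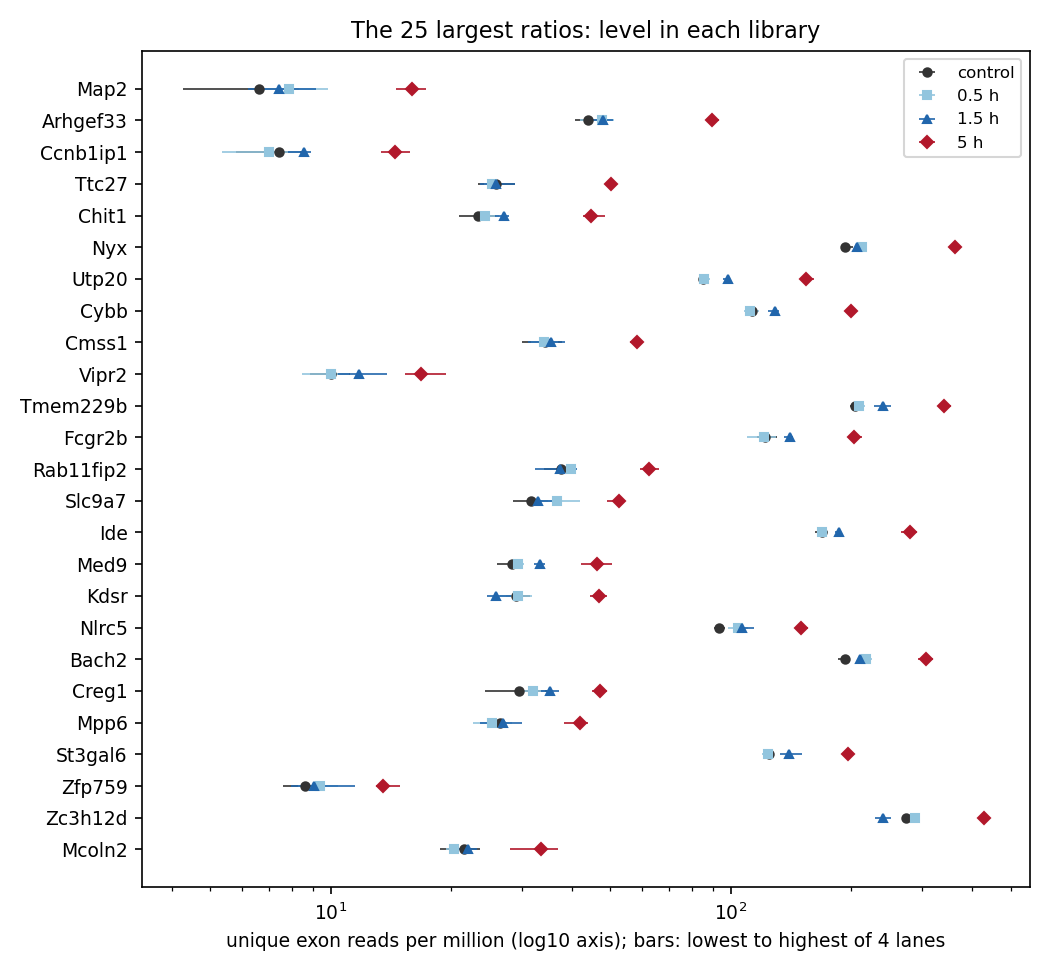
CPM of unique exon reads (log10 axis) in the 4 libraries for the 25 members with the largest ratio of 5 h to control, predicted genes left out; bars run from the lowest to the highest of the 4 lanes. By the rule, in each gene the 5 h point lies to the right of the other 3, which lie close together. The lane bars are widest for genes of low level such as Map2, from 4.26 to 8.34 in the control.

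The exon length of the members was close to that of the other expressed genes. Its median was 4010 bases in the members and 3972 in all 8351 features, with 15.5 and 17 exons. The longest exon lengths were those of Map2 with 16449 bases, Bach2 with 9940 and Atp2b4 with 9031, and the shortest were those of 0610012G03Rik with 417, Cmss1 with 930 and Cst7 with 986. The span on the chromosome was longer, with a median of 40535 bases beside 24199 and quartiles of 15492 and 79985 beside 11002 and 52446. Of the members 13, or 17.1%, spanned at least 100000 bases, beside 10.9% of all features. Median spans of the early and the late class were close, at 45681 and 46966 bases. By role, the median span was highest in the signalling, cytoskeleton and membrane traffic group, at 84820 bases. It was lowest among transcription cofactors and zinc fingers, at 13780. Between these lay the glycan and lipid group with 57384 bases, the B cell and immune group with 45681, and the ribosome and polymerase group with 25592.

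**Figure D5:**
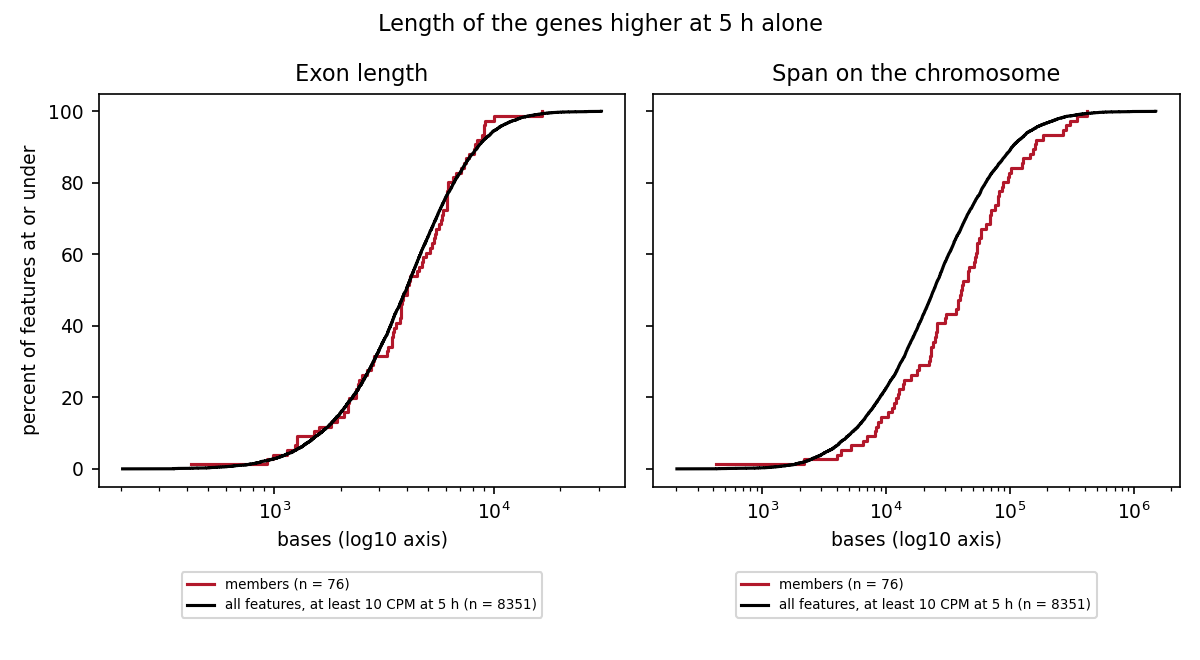
Percent of features at or under a given exon length (left) and span on the chromosome (right), both in bases on log10 axes, for 76 members (red) and all 8351 features with at least 10 CPM at 5 h (black). The exon length curves lie together, with medians of 4010 and 3972 bases, and the members' span curve lies to the right, with a median of 40535 beside 24199 bases.

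Some reads of these genes may belong to others. The spans of 10 members overlap another feature of at least 1 CPM, among them Pigh, Pkd1l3, St3gal6, Ipo4, Mpp6, Ap1ar, Nhp2, Nsun2 and Hspd1. The strand of the counts is not stated, so reads of overlapping genes cannot be told apart. Under 90% of the exon reads were unique in 13 members. In Arhgef33, Ccnb1ip1, Ttc27, Gm684 and Ndufaf6 more reads lay outside exons than in them in the control.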

How the data were processed

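The deposited tables hold, per the file headers, counts of reads per feature and lane, not normalized: unique exon reads, unique gene reads, total reads, and reads over exon-exon and exon-intron borders. RNA was selected for poly(A), per the labels' protocols, and libraries came from a TruSeq or a NEBNext kit. Which library used which kit is not stated, so any effect of the kit cannot be told apart from time. The submitters' processing notes name CASAVA 1.8.2 and the build mm10, with no aligner or counter named (not given in the sources used here). RPKM and fold columns were not used. Lanes share 1 index per condition and were summed. CPM is per 1000000 unique exon reads, and no value was added. Members and gene lists were chosen with earlier results of these data known. The 30 lists hold 1156 genes, of which 1145 were found, and 26 lists hold no member. The rule for named genes took the 25 largest ratios without predicted genes, the 3 on each side of the limit, up to 4 per list, and the extremes of reads outside exons and of exon length. It also took Cd79a, Vpreb1, Igll1, Ighm, Blnk and Esr1 as checks, and any member for its role; 1 member is not reported here by name. The 5 h ratios of these checks were 0.67, 0.85, 0.91, 0.79, 1.00 and 1.12. Blnk had 4183 CPM in the control and 4177 at 5 h, and reads do not part the construct from the gene. Lane numbers mark the same flow cell lane and pair nothing but sequencing. Promoters come from RefSeq GRCm38.p6. Python 3.11.15, numpy 2.4.6, pandas 2.3.3, scipy 1.17.1, matplotlib 3.10.9, R 4.3.3, edgeR 4.0.16 and DESeq2 1.42.0 were used, the last 2 for scaling factors in alternatives.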

Additional observations from a re-analysis of the deposited data

How the results depend on the processing

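The count of 76 members followed its limits: 165 without a floor at 5 h, 212 with a 5 h ratio of at least 1.3, 36 with 1.5 and 2 with 2, 31 with early ratios between 0.9 and its inverse and 155 with 0.75 and its inverse. It was 85 with TMM factors (67 of the 76 kept), 90 with DESeq2 size factors (71 kept), 87 with total exon reads (69 kept) and 64 with unique gene reads (41 kept). Leaving out each lane in turn gave 72 to 86 members (58 to 64 of the 76 kept), a median 5 h ratio of 1.49 to 1.52, and medians outside exons of 1.005 to 1.06 at 0.5 h, 1.44 to 1.51 at 1.5 h and 1.52 to 1.55 at 5 h. With lanes as a replicate block the count was 76, all of them shared, and the median outside exons at 1.5 h was 1.48. With 5 CPM added the median 5 h ratio was 1.45. Outside exons, reads summed over members gave 1.24 at 1.5 h and 1.66 at 5 h, sums in which Kynu holds the most reads. Against 0.5 h, an alternative chosen after seeing the data, the 1.5 h median was 1.327. Scaled by all reads outside exons, the 5 h median was 1.35 beside 0.999 over all features. Without members under 90% unique reads, also added later, 63 remained. No recomputed ratio of a member and no recomputed median over members changed direction, while Blnk, level with the control at 0.998, was 1.014 with TMM factors. Of those for single genes 17 moved by more than the counting interval and 511 did not, and among the 17 Ttc27 had 1.36 in unique gene reads, under the limit. Depth limits reads outside exons, with 14 control reads in A630033H20Rik, 17 in Zfp759, 19 in Nhp2, 42 in Map2 and 57 in Cad.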

Other observations

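Of the 76 members 7 lie on chromosome X, or 9.21%, beside 249 of the 8351 features with at least 10 CPM at 5 h, or 2.98%. They are Nyx, Cybb, Slc9a7, A630033H20Rik, Utp14a, Tbl1x and Rps6ka3, chosen after their values were seen. Their 5 h exon ratios ran from 1.401 in Rps6ka3 to 1.88 in Nyx, and Nyx, Slc9a7, A630033H20Rik and Rps6ka3 were of the late class outside exons, while Cybb, Utp14a and Tbl1x were of the early class. Members lay on 18 chromosomes in all.

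Some members are close neighbours. Tmem229b and Pigh lie 73046 bases apart on chromosome 12, Chit1 and Atp2b4 310201 bases apart on chromosome 1, and the zinc finger genes Zfp759 and Zfp874b 329727 bases apart on chromosome 13. Tmem229b and Pigh differed outside exons at 1.5 h, with 1.43 and 0.93, and had 1.73 and 1.47 at 5 h. Chit1 and Atp2b4 had 1.54 and 1.87 at 1.5 h and 2.83 and 2.07 at 5 h.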
